A study of Mus musculus with 12 samples.

Results

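The Sox genes encode transcription factors that share the DNA-binding HMG box of the sex-determining gene Sry. Described here are 10 of them, Sox1 and Sox2 (subgroup B1), Sox4, Sox11 and Sox12 (subgroup C), Sox5 and Sox6 (subgroup D), Sox9 and Sox10 (subgroup E) and Sox17 (subgroup F). They were among 21938 protein-coding genes that GENCODE mouse release M21 places on chromosomes 1 to 19, X and Y. A peak was given to a gene when it touched the gene body or lay within 3 kb of any annotated start site of the gene, and this rule found 15 of the 19753 Mof+/+ peaks and 2 of the 716 Mof+/- peaks on those chromosomes.

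MOF (KAT8) acetylates lysine on histone H4, mostly at active promoters. Its positions in the chromatin of visceral white adipose tissue were mapped by ChIP-seq, the sequencing of DNA that an antibody pulls down with a protein, in mice labelled C57BL/6 (backcrossed to C57BL/6J in the study's methods) that were wild type (Mof+/+) or had 1 functional copy of Mof (Mof+/-). All animals were 8 weeks old and on a standard diet, and nuclei came from minced tissue with no sorting of adipocytes described. There were 12 libraries in 6 groups of 2 (MOF ChIP, H3 ChIP and input in each genotype), and the MOF peaks came as 1 list per genotype with no replicate columns (the design text counts 3 Mof+/- animals, while the labels give 2 replicates and the study's reporting summary 2 littermates per genotype). Signal tracks were not used here. No spread between animals could therefore be had from the lists, no test between genotypes was made, and every interval given below is an exact 95% Poisson interval of the fragments at a summit, with the background held fixed. Such an interval covers counting error alone, and fragments copied by PCR are not independent molecules.

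Sox proteins bind short AT-rich DNA words through the minor groove and bend the DNA, usually beside a partner factor that gives the choice of target. The family is best known for cell fate. SoxB1 proteins maintain neural progenitors, and Sox2 also sustains pluripotent cells. SoxC proteins act in differentiating neurons and in mesenchyme, SoxD and SoxE proteins cooperate in cartilage, Sox10 specifies Schwann cells and melanocytes, and Sox17 acts in endoderm and in arterial endothelium. In white adipose tissue, the vessels, nerves and progenitors are therefore textbook places of Sox expression alongside adipocytes.

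Sequences at the summits are shown because the peaks at the Sox genes differed widely in how many CpG dinucleotides they held. Each run is GRCm38 sequence of 200 bases, read 5′ to 3′ on the strand of the gene, with every CG in capitals. The first pair is centred on the summits of the Mof+/- list, at Sox2 past the end of the gene and at Sox17 in coding sequence.
Sox2, chr3:34652580-34652779: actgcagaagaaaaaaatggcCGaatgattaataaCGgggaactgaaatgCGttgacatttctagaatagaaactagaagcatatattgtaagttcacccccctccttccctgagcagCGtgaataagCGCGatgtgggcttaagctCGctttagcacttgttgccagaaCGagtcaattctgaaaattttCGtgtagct
Sox17, chr1:4491879-4492078: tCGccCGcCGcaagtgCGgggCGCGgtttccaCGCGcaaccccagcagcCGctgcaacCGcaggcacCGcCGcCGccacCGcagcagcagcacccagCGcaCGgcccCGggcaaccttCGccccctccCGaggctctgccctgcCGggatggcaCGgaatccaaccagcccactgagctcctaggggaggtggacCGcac
The Sox17 run held 22 CpG and was 74.0% G+C, whereas the Sox2 run held 9 CpG and was 42.5% G+C. The next runs come from peaks of the Mof+/+ list within 1 kb of a start site. The Sox4 run was moved by 383 bases from its summit onto coding sequence, and the other pair is centred on the summit, in an intron of the divergent gene BC006965 for Sox9 and in an intron for Sox17.
Sox4, chr13:28952822-28953021: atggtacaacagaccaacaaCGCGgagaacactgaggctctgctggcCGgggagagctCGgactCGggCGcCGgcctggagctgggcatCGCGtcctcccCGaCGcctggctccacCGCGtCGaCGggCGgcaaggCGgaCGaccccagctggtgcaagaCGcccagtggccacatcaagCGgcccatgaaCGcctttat
Sox9, chr11:112780656-112780855: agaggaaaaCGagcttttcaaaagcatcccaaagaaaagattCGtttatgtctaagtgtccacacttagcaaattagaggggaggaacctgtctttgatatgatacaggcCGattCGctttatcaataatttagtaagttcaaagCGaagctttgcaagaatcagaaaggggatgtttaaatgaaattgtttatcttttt
Sox17, chr1:4494175-4494374: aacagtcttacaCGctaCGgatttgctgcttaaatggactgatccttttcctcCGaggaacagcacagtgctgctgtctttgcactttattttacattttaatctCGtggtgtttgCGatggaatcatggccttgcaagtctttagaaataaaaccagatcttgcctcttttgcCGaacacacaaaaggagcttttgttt
These held 21, 5 and 6 CpG. For comparison, the last pair is the sequence just before the starts of the genes that had no peak by the rule.
Sox1, chr8:12395095-12395294: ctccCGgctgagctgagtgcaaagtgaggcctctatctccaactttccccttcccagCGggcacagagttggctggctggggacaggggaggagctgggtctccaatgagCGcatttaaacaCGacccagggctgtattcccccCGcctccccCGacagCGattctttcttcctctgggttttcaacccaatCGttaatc
Sox10, chr15:79165241-79165440: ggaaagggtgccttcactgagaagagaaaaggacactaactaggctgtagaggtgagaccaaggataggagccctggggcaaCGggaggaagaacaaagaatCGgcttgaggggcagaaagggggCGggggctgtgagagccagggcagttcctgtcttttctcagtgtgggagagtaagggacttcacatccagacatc
They held 8 and 3 CpG.

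Of the 10 genes, 8 had a peak in the Mof+/+ list, all but Sox1 and Sox10, where 44.5% of all protein-coding genes did. In the Mof+/- list, 2 of 10 had a peak, Sox2 and Sox17, where 1.89% of protein-coding genes did. Both also had a Mof+/+ peak, so that 2 of the 8 genes with a Mof+/+ peak had a Mof+/- peak, beside 4.06% of all genes with a Mof+/+ peak. The lists differ greatly in length, however. Among the 716 strongest Mof+/+ peaks, as many as the Mof+/- list holds, 0 of the 10 genes had a peak, beside 3.62% of protein-coding genes, and 0 had a promoter peak within 1 kb, beside 3.12%. These shares describe the genes named here and cannot be read as a property of the family, because the 10 were chosen with results of the same lists known. Of the other 10 Sox genes of the annotation, 2 had a Mof+/+ peak (Sox3 and Sox21) and 1 had a Mof+/- peak (Sox21). Where a list lacks a call, fewer cells with MOF at the site, less MOF per cell and lower depth cannot be told apart.

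Closer to the start sites, within 1 kb, a Mof+/+ peak lay at 5 of the 10 genes (Sox2, Sox4, Sox9, Sox12 and Sox17), beside 41.0% of protein-coding genes. A Mof+/- peak lay there at 1 of 10, Sox2, beside 1.32% of protein-coding genes. The 15 Mof+/+ peaks were divided into 6 within 1 kb of a start site, 5 between 1 and 3 kb and 4 farther away, all 4 in Sox5. By overlap with the gene, 13 lay on a gene body, and the upstream peak of Sox2 and the peak of Sox12 did not.

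**Figure D1:**
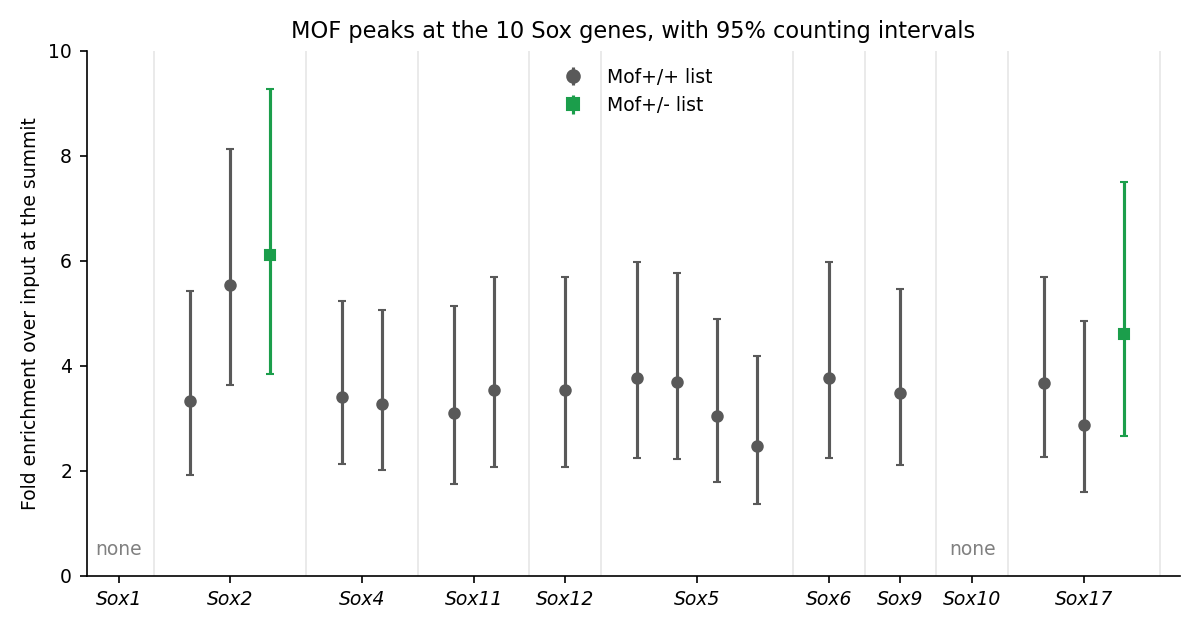
Fold enrichment of ChIP over input at the summit of each peak at the 10 Sox genes, from the Mof+/+ list (circles) and the Mof+/- list (squares), with exact 95% Poisson intervals of the summit fragments. The Sox2 domain stood highest in both lists, at 5.53 and 6.11, and the intervals of all peaks overlapped.

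Fold enrichment, the ratio of ChIP fragments to the local input background at the summit after 1 is added to each, had a median of 3.48 over the 15 Mof+/+ peaks, beside 3.40 over the whole list. Several of the 15 had the lowest background of that list, 3.52 fragments. At those, the fold follows from the fragment count alone, so equal counts give equal folds. The widths had a median of 621 bp beside 609 bp, and the fragments at the summit a median of 16 in both. In these respects, the peaks at the Sox genes resembled an ordinary peak of the list. In CpG content the median was 41.5 per kb beside 24.5, but the quartiles were close, at 13.4 and 61.2 beside 12.01 and 62.93, so the spread of CpG content was much the same as in the whole list. Their median G+C was 48.3% beside 52.4%. The words at which CviKI-1, the enzyme that fragmented the chromatin, cuts (AGCC or AGCT, and GGCC or GGCT) came to a median of 18.2 per kb beside 21.2, and the part of cutting in these values was not tested.

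Sox2, the pluripotency and neural progenitor factor, carried the strongest MOF signal of the 10 genes in both lists. The gene lies on the plus strand at chr3:34650405-34652461, inside an intron of the noncoding gene Sox2ot. Its Mof+/+ domain at chr3:34649983-34654432 was 4450 bp wide, wider than 99.1% of the peaks of the list, and it covered 100.0% of the Sox2 body and the starts of Sox2 and Gm27611. At its summit, 24 fragments over a background of 3.52 gave, with 1 added to each, a fold enrichment of 5.53 (interval 3.62 to 8.12). That fold was above 94.1% of the Mof+/+ peaks. A smaller peak upstream, chr3:34649094-34649672, had its summit 932 bp before the start with 14 fragments and a fold enrichment of 3.32 (1.91 to 5.42). The Mof+/- peak of Sox2 lay inside the wide domain at chr3:34650976-34653072, with 20 fragments over a background of 2.44 and a fold enrichment of 6.11 (3.85 to 9.28). It ranked 58 of 716 by p-value, was 2097 bp wide or 47.1% of the Mof+/+ width, and had its summit 15 bp from the Mof+/+ summit. Neither summit was at the promoter. They lay 2260 and 2275 bp downstream of the start, just past the annotated end of the gene, in the sequence shown above. With the intervals overlapping over most of their length, no difference in height between the lists could be seen at Sox2.

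Sox1, the other SoxB1 gene described (chr8:12395295-12400126, plus strand), had no peak by the rule in either list. Its promoter was CpG-rich, with 84 CpG within 500 bp of the start. The absence depends on where the rule ends. A Mof+/+ peak at chr8:12400537-12401106 began 411 bp past the end of the gene with 16 fragments and a fold enrichment of 3.29 (1.96 to 5.22), and a Mof+/- peak at chr8:12400466-12400820 began 340 bp past it with 13 fragments and a fold enrichment of 4.29 (2.43 to 7.12). The summits of this pair were the same base, 12400607, in an intron of Sox1ot. Upstream, the nearest Mof+/+ peak ended 3670 bp before the start, with a fold enrichment of 3.75 (2.39 to 5.64). Sox1 was thus flanked by MOF peaks in both lists without one on the gene itself.

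**Figure D2:**
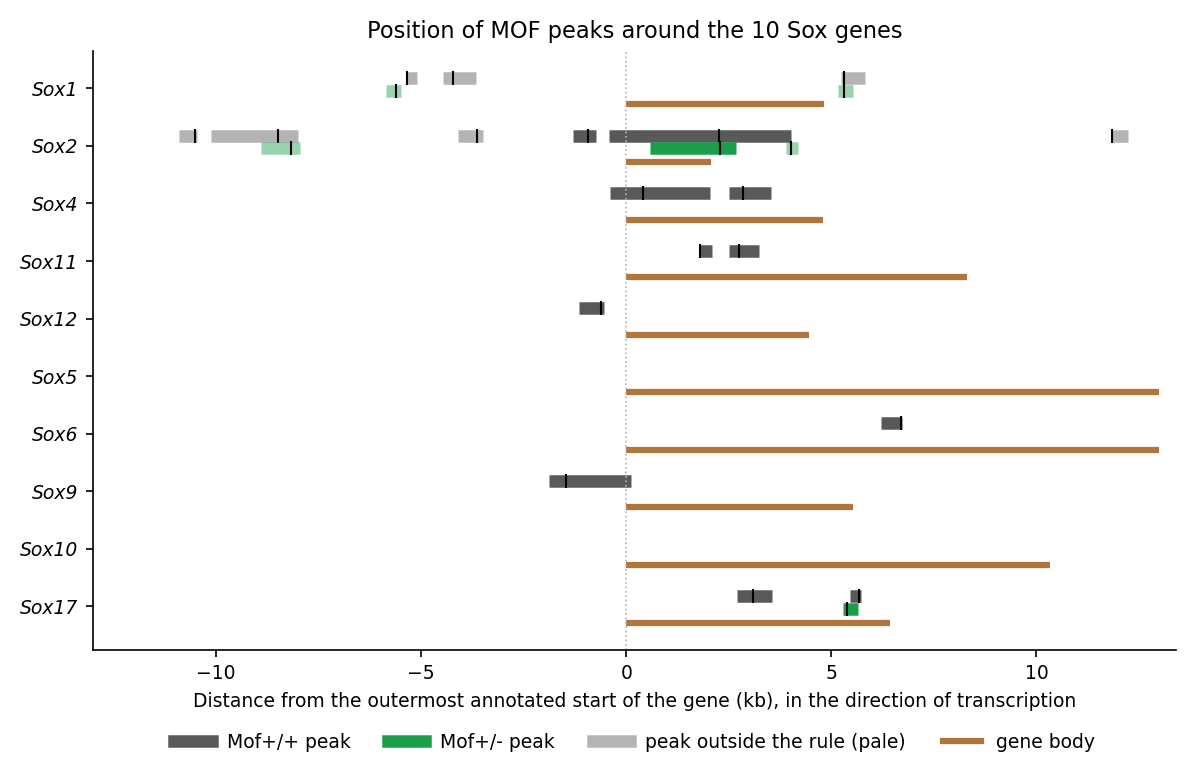
Peaks of the Mof+/+ list (grey) and the Mof+/- list (green) around the 10 Sox genes, plotted as distance in kb from the outermost annotated start in the direction of transcription, with summits as black ticks, gene bodies in brown, and peaks outside the rule in pale shades. Sox2 lies within a domain and Sox1 between flanking peaks, and the 4 peaks of Sox5 lie beyond the plotted range.

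Among the SoxC genes, which act in neuronal and mesenchymal differentiation, Sox4, Sox11 and Sox12 all had a Mof+/+ peak and none had a Mof+/- peak. Sox4 (chr13:28948919-28953713, minus strand) had a peak over its start at chr13:28951671-28954104, 2434 bp wide, with 19 fragments and a fold enrichment of 3.41 (2.12 to 5.23). A further peak on Sox4, chr13:28950194-28951216, had 18 fragments and a fold enrichment of 3.27 (2.01 to 5.07), with its summit 2840 bp downstream of the start. The former held 91.6 CpG per kb and the latter 26.4, so that the fold enrichment was nearly the same at very different CpG content.

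Sox11 (chr12:27334264-27342574, minus strand) had no peak at its start although 100 CpG lay within 500 bp of it. Its peaks sat in the untranslated part of its exon, where chr12:27340492-27340805 had 13 fragments and a fold enrichment of 3.10 (1.75 to 5.14), and chr12:27339339-27340075 had 15 fragments and a fold enrichment of 3.54 (2.08 to 5.69). Their summits were 1794 and 2746 bp into the gene. Sox12 (chr2:152393611-152398063, minus strand), with the most CpG-rich start of the 20 Sox genes at 126 CpG, had a peak before it in intergenic sequence. This peak, chr2:152398604-152399224, had 15 fragments and a fold enrichment of 3.54 (2.08 to 5.69), with its summit 619 bp upstream.

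The SoxD genes, partners of Sox9 in cartilage, are the long genes of the set. Of 2492 protein-coding genes longer than 100 kb, 46.4% had a Mof+/+ peak by the rule, and both Sox5 and Sox6 did. Sox5 (chr6:143828425-144781977, minus strand) had 4 peaks, or 0.419 per 100 kb, and Sox6 had 0.176 per 100 kb. Of the 230 genes longer than 500 kb, to which both belong, 25.2% had any Mof+/+ peak. The highest, chr6:144677805-144679010, had 16 fragments and a fold enrichment of 3.76 (2.24 to 5.97). Next to it, chr6:144673704-144673977 had 17 fragments and a fold enrichment of 3.68 (2.23 to 5.78), and chr6:144670524-144670952, over an exon of the noncoding gene Sox5it, had 15 fragments and 3.04 (1.79 to 4.90). These 3 peaks lay within 8487 bp of each other, from 461 to 469 kb before the outermost start of the 7 protein-coding Sox5 transcripts. The remaining peak, chr6:144265317-144265672, was the weakest of the 15, with 12 fragments and a fold enrichment of 2.47 (1.37 to 4.18), and its summit lay 56.1 kb before that start. All 4 summits were covered by 2 of the 14 annotated Sox5 transcripts, neither of them protein coding. The Sox5 peaks were also poor in CpG, at 6.63 to 14.0 per kb. None of the 4 was near a start site, the closest being 55749 bp away, although 83 CpG lay around the outermost Sox5 start.

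Sox6 (chr7:115470872-116038796, minus strand) had 1 peak, chr7:116032068-116032593, with 16 fragments and a fold enrichment of 3.76 (2.24 to 5.97). It lay 1009 bp from an internal start site of Sox6 and over an exon of the antisense gene Sox6os. In contrast to the Sox5 peaks, it held 62.7 CpG per kb. No Mof+/- peak was found on Sox5 or Sox6.

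Of the SoxE genes, Sox9, the cartilage and progenitor factor, had 1 Mof+/+ peak and Sox10, the Schwann cell and melanocyte factor, had none. The Sox9 peak at chr11:112780348-112782332 covered the start of the gene (chr11:112782224-112787760, plus strand) and that of the divergent noncoding gene BC006965. It was 1985 bp wide, with 17 fragments and a fold enrichment of 3.48 (2.11 to 5.45). Its summit was 1468 bp upstream of Sox9, in the A+T-rich sequence shown above. At Sox10 (chr15:79154908-79165240, minus strand), the nearest Mof+/+ peak was 13.5 kb past the end of the gene, at the start of Polr2f, with a fold enrichment of 3.10 (1.75 to 5.14). The nearest Mof+/- peak lay 730 kb away. Only 13 CpG lay around the outermost Sox10 start, beside a median of 41.0 over protein-coding genes.

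Sox17 (chr1:4490931-4497354, minus strand), the endoderm and endothelial factor, was the other gene with a peak in both lists. Its stronger Mof+/+ peak, chr1:4493793-4494653, lay 58 bp from an internal start site, with 18 fragments and a fold enrichment of 3.67 (2.26 to 5.69), and no Mof+/- peak overlapped it. Its weaker Mof+/+ peak, chr1:4491630-4491897, had 12 fragments and a fold enrichment of 2.88 (1.59 to 4.86), and this was the peak that a Mof+/- peak overlapped, by 205 bp. The Mof+/- peak at chr1:4491693-4492079 had 14 fragments and a fold enrichment of 4.60 (2.65 to 7.51), and ranked 268 of 716 by p-value. The summits were 301 bp apart, in coding sequence in the Mof+/- list and in the untranslated part of the exon in the Mof+/+ list. Their intervals overlapped, and the Mof+/- fold is a ratio to a smaller background, 2.26 against 3.52.

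The summits of most of the 6 Mof+/+ peaks within 1 kb of a start site stood away from the starts of protein-coding genes. Of these 6, 1 (Sox4) had its summit within 500 bp of such a start, and the median distance was 776 bp. The summits at Sox17 and Sox12 lay just past that limit, at 540 and 619 bp. The start of the noncoding gene BC006965 under the Sox9 peak was not counted. Over all 10141 Mof+/+ peaks within 1 kb of a protein-coding start site, 79.8% had the summit within 500 bp of one, with a median of 205 bp. Of the 15 summits, 3 lay upstream of the outermost start of their gene and 12 downstream. The rule takes the whole gene body but only 3 kb before a start site. This division therefore cannot be read as a preference for either side.

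**Figure D3:**
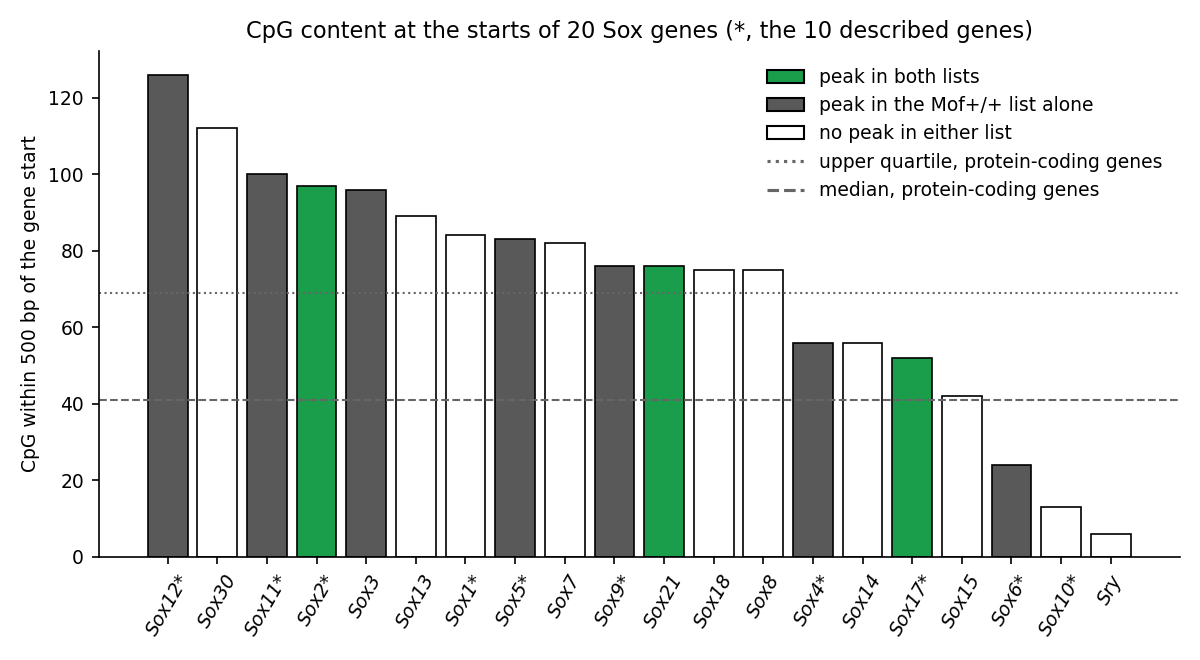
CpG count within 500 bp of the outermost start of each of 20 Sox genes, in descending order, filled by whether the gene had a peak in both lists, in the Mof+/+ list alone or in neither; asterisks mark the 10 described genes and lines give the median (41.0) and upper quartile (69.0) of protein-coding genes. Genes with a peak range from Sox12 at 126 to Sox6 at 24, and genes with no peak from Sox30 at 112 to Sry at 6.

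By CpG content at the start, 6 of the 10 genes (Sox1, Sox2, Sox5, Sox9, Sox11 and Sox12) were in the top 25% of protein-coding genes, at 69.0 CpG or more. Of these, 5 had a Mof+/+ peak and 1 a Mof+/- peak, where 75.4% and 3.23% of all protein-coding genes of that class did. Over all 20 Sox genes, 13 were in that class and 7 of them had a Mof+/+ peak. CpG-rich Sox genes without a peak in either list included Sox30 (112 CpG), Sox13 (89), Sox7 (82), Sox8 (75) and Sox18 (75). In contrast, Sox6 had a peak with 24 CpG around its outermost start. That peak, however, had its summit 6698 bp into the gene and held 62.7 CpG per kb. The Sox5 peaks likewise lay more than 100 kb from its CpG-rich outermost start.

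Sox21, a SoxB2 gene of neural progenitors that is not among the 10, also had peaks in both lists. Its Mof+/+ peak at chr14:118232101-118234937 had 26 fragments and a fold enrichment of 5.97 (3.98 to 8.65), and the Mof+/- peak within it, chr14:118233374-118234749, had 17 fragments and 5.52 (3.34 to 8.65). As at Sox2, these summits lay downstream of the start, at 4229 and 3358 bp. Near its start, further peaks of the lists had fold enrichments of 3.73 (2.35 to 5.67) and 3.23 (1.93 to 5.13).

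By overlap of peaks, 2 of the 15 Mof+/+ peaks (13.3%) shared at least 1 bp with a Mof+/- peak, beside 2.44% of all Mof+/+ peaks. Conversely, both Mof+/- peaks overlapped a Mof+/+ peak, beside 84.8% of all Mof+/- peaks. No interval is given for the 13.3%. The 15 peaks are not replicates, and their genes were chosen with results of the same lists known. The count fell to 1 of 15 (6.67%) when 50% of both peaks had to be shared, which left Sox17, or when the Mof+/+ summit had to lie inside the Mof+/- peak, which left Sox2. The 13 Mof+/+ peaks with no Mof+/- partner had fold enrichments from 2.47 to 3.76, with a median of 3.48. The overlapped peaks were thus the highest of the 15 (Sox2) and the second lowest (Sox17).

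**Figure D4:**
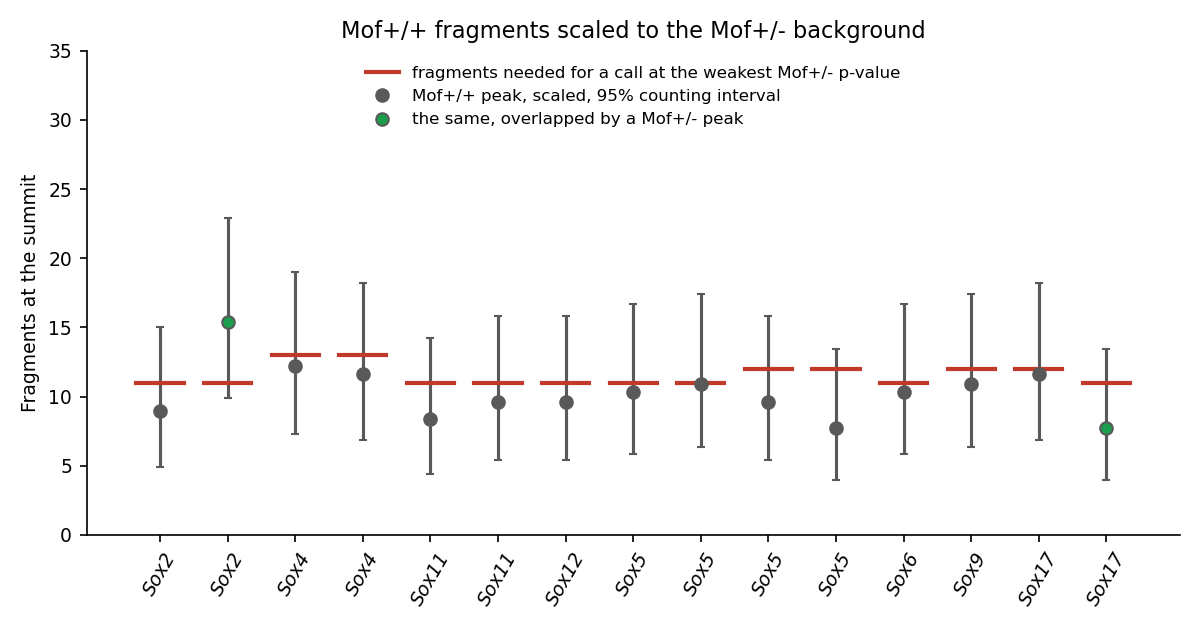
Summit fragments of the 15 Mof+/+ peaks divided by 1.56, the ratio of the lowest backgrounds of the lists, with 95% counting intervals (points), and the fragments a Mof+/- peak would need at the same place (red bars). The Sox2 domain lies above its bar at 15.4 against 11, and the other 14 peaks lie below theirs.

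Whether the Mof+/- list could have held these peaks was asked by scaling. The lowest background of a summit, taken as a measure of relative depth, was 3.52 fragments for Mof+/+ and 2.26 for Mof+/-, which gives a ratio of 1.56, and the weakest Mof+/- peak had a −log10 p-value of 4.72 against 3.25 in the Mof+/+ list. At the same enrichment, 1 of the 15 peaks, the Sox2 domain, kept enough fragments for a Mof+/- call (15.4 against 11 needed), beside 30.1% of all Mof+/+ peaks. Of the others, the closest was a Sox5 peak at 10.9 fragments against 11, followed by the intron peak of Sox17 at 11.6 against 12. The weaker Sox17 peak scaled to 7.71 against 11, and the Mof+/- peak that overlapped it had its 14 fragments at a summit outside it, so the counts belong to different places. For the 13 peaks with no Mof+/- partner, all point values lay under the needed number, but the counting intervals of all 13 reached past it. Whether the missing calls come from depth or from less MOF at these sites was not tested.

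The search beneath the peaks was for a Sox binding word in a fixed form, and variants of it were not counted. The word AACAAT, read on both strands (ATTGTT), was present in 3 of 15 windows of 300 bp around the Mof+/+ summits of the Sox genes, beside 8.61% of the windows of all Mof+/+ peaks. Around the Mof+/- summits it was present in 0 of 2, beside 13.1% of all. A match of letters is not a bound site.

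Genes related to Sox function were counted by the same rule. The TCF/LEF genes, HMG-box factors of Wnt signalling, had a Mof+/+ peak at 4 of 4 and a Mof+/- peak at 1 of 4, Lef1, with fold enrichments of 3.99 and 3.23. Of 14 partners and targets of Sox proteins, 8 had a Mof+/+ peak and 5 a Mof+/- peak. Beside both lists stand the shares over all protein-coding genes, 44.5% for Mof+/+ and 1.89% for Mof+/-. The 5 partners and targets with a Mof+/- peak included the neural factors Pou3f2 (3.04) and Pou3f3 (3.68). The rest were the paired-box factors Pax6 (highest of 3 peaks 5.52) and Pax3 (highest of 2 peaks 4.91), and the receptor Erbb3 (3.78). The cartilage genes Col2a1, Acan and Comp had no peak in either list.

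As a check of the tissue, 9 of 10 adipocyte genes had a Mof+/+ peak, Lep being the exception, and none had a Mof+/- peak, where 44.5% and 1.89% of all protein-coding genes did. All 6 B cell genes and 5 of 6 T cell genes had a Mof+/+ peak, against 1 of 6 macrophage, 1 of 6 endothelial, 2 of 6 fibroblast and progenitor, 1 of 6 mesothelial and 2 of 6 Schwann cell genes. In the Mof+/- list, Pax5, Pdgfra and Wt1 were the marker genes with a peak. Which cells of the tissue carried the MOF signal at the Sox genes was not tested.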

How the data were processed

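MOF ChIP-seq of visceral white adipose tissue was analysed from 2 peak lists, 1 per genotype. The authors aligned reads to GRCm38 through the snakePipes workflow and ran MACS2 (version 2.1.1.20160309.3 in the submitters' processing notes) with input as control and a q-value limit of 0.1. Whether libraries were pooled is not given in the sources used here, and the depth of the libraries is unknown. The deposited fold enrichment is a ratio to the local input background, and −log10 values of p and q, also deposited (a p-value and a q-value), belong to the summit. The deposited score column was not used, and the deposited summit offset was used as a position. The authors describe a merge within 1000 bp that the lists do not show.

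Whole fragments and background at each summit were solved from fold and p-value as MACS2 computes them, with a pseudocount of 1 in the fold, which worked for 99.98% of 19773 Mof+/+ peaks and 99.45% of 731 Mof+/- peaks (tolerance 0.001 in −log10 p). On simulated data, 99.6% and 100.0% were recovered and 0 were wrong. Genes came from GENCODE M21, sequence from RefSeq's GRCm38 assembly, and the gene start is the outermost annotated one. Peaks on unplaced scaffolds were left out. Python 3.11.15, numpy 2.4.6, pandas 2.3.3 and scipy 1.17.1 were used. Samples were grouped by their labels. Alternatives changed the window, the overlap, the q-value limit, the transcripts counted and the number of peaks in the Mof+/+ list. Named were all 10 genes with every peak, the peaks of other Sox genes with a Mof+/- or promoter peak, and listed relatives by counts, with values for those with a Mof+/- peak. The genes and the gene lists were chosen with earlier results of these data known. The input libraries entered through the authors' peak calling alone, and the H3 libraries were not used.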

Additional observations from a re-analysis of the deposited data

How the results depend on the processing

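Of 75 alternative values, 69 stayed within 1.5 times the count, or within the spread, of the value given. This spread is not one between animals. For the overlap share it was so wide that 6.67% beside 13.3% still counted as within it. The 69 is therefore no measure of how firmly that share is held. With a window of 10 kb around start sites in place of 3 kb, the Mof+/- peaks at the 10 genes were 6 in place of 2. Among the 716 strongest Mof+/+ peaks, as many as the Mof+/- list holds, the genes with a peak were 0, the peaks 0 and the genes with a promoter peak 0, so that overlap and median fold had no value there. The genes with a Mof+/- promoter peak were 0 with a 500 bp window and 2 with 3 kb, in place of 1 with 1 kb. The share of Mof+/+ peaks that a Mof+/- peak overlapped, 13.3%, ranged from 6.67% to 20.0%, with 7.69% under a q limit of 0.01 and 8.33% among Mof+/+ peaks past the weakest Mof+/- p-value. Leaving out a replicate was not possible with 1 list per genotype. No paired analysis was possible because the lists carry no replicate columns. The precision is limited by counts of 12 to 24 fragments at a summit.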

Other observations

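Outside the rule, MOF peaks lay around Sox2 and Sox1 in both lists. Within 100 kb of the bodies of the 10 genes, the Mof+/- list held 6 further peaks, 4 at Sox2 and 2 at Sox1. The Mof+/+ list held 17, of which 5 were at Sox2, 3 at Sox1, 6 at Sox10, 2 at Sox12 and 1 at Sox6. Such flanks were not counted over all genes, so these numbers cannot be read as a trait of the Sox genes. Several of the peaks around Sox10 lay at starts of other genes, such as Ankrd54, Micall1, Polr2f and Pick1. The summits of the peaks at Sox2 and Sox1 lay in introns of the noncoding genes Sox2ot or Sox1ot. The strongest was a Mof+/- peak at chr3:34664281-34664899, 11.8 kb past the end of Sox2, with 20 fragments and a fold enrichment of 6.06 (interval 3.82 to 9.21), over the start of the noncoding gene Gm42693. A neighbouring Mof+/- peak, chr3:34663568-34663908, had 12 fragments and a fold enrichment of 3.99 (2.21 to 6.73). The Mof+/+ peak that overlapped both, chr3:34663568-34664815, had 19 fragments and a fold enrichment of 2.51 (1.56 to 3.85) at a summit of its own, and its interval overlapped both of theirs. Upstream of Sox2, a Mof+/+ peak of 2139 bp, chr3:34640267-34642405, had a fold enrichment of 4.42 (2.75 to 6.79), and the Mof+/- peak that overlapped it, chr3:34641491-34642437, had 4.29 (2.43 to 7.12). A Mof+/- peak at chr3:34654306-34654589 lay across the downstream edge of the wide Sox2 domain, with 12 fragments and a fold enrichment of 3.99 (2.21 to 6.73). Before the start of Sox1, a Mof+/- peak at chr8:12389445-12389801 had 15 fragments and a fold enrichment of 4.91 (2.88 to 7.89) with no Mof+/+ peak over it. No peak of either list lay within 100 kb outside the rule at Sox4, Sox5, Sox9, Sox11 or Sox17.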
